A study of Mus musculus with 39 samples.

Results

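BH3-only proteins are the death-promoting branch of the Bcl2 family, and the 8 members described here are the genes Hrk, Bcl2l11, Bbc3, Bik, Bid, Bad, Bmf and Pmaip1. All probe sets whose annotated gene symbol is 1 of these 8 were taken, which gave 20 probe sets of the 45037 measured on the array and 8 of 18193 genes. The rule used gene symbols and no measured level, although the set was proposed with earlier results of these data known. Transcript levels were measured on Affymetrix Mouse Genome 430 2.0 arrays in dorsal root ganglia (DRG) of newborn (p0) and adult mice, with 39 arrays in 16 groups. The labels give a 129/C57Bl6 background for every sample, whereas the methods describe the running-wheel mice and their littermate controls as C57Bl6 males, so the strain of the adult arrays is not settled. Newborn lumbar DRG (L1 to L6 together) were dissociated and sorted by fluorescence into TrkC GFPon proprioceptors, the neurons that sense muscle stretch, and TrkC GFPoff non-proprioceptors. All sorted newborn samples carried the TrkCGFP transgene, a bacterial artificial chromosome in which regulatory elements of TrkC, the receptor of neurotrophin 3 (NT3), drive green fluorescent protein. Both populations were taken, with 2 arrays each, from NT3-/-Bax-/- mice, Bax-/- mice, mlcNT3 mice and wild-type mice that carried TrkCGFP alone. The mlcNT3 transgene drives NT3 from a myosin light chain promoter in skeletal muscle. A further set of wild-type TrkCGFP newborns was sorted separately at L5 (3 GFPon and 3 GFPoff arrays) and L1 (2 GFPon and 3 GFPoff arrays). Adult samples were whole L5 and L1 ganglia of wild-type mice, with or without 5 weeks of access to a voluntary running wheel (3 arrays each). A pooled newborn sample held 350 sorted cells on average and a sample of 1 level held 100, so all newborn RNA was amplified before hybridisation. No source says whether arrays of 1 group came from different animals, so the p-values measure the spread between these arrays and no more.

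A BH3-only protein carries 1 of the homology domains of the Bcl2 family. It binds pro-survival relatives such as Bcl2, and some members also activate Bax and Bak1 directly, which then open the outer mitochondrial membrane and release cytochrome c. In developing neurons deprived of a neurotrophin, Hrk and Bcl2l11 are known as transcriptionally induced death genes, and Bax is the effector that kills these cells. NT3 is the survival factor of proprioceptors, so proprioceptors of NT3-deficient mice can be studied at birth only where Bax is removed as well. Neither the NT3 gene nor Bax has a probe set assigned to it alone in these data, so the knockouts could not be checked on their own transcripts.

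Signal levels below are linear values after robust multi-array average (RMA) normalisation, differences are on the log2 scale with their standard error (SE), and a probe set is said to have passed the test at a limma adjusted p under 0.05. The sorted populations carried their labels: Runx3, a transcription factor of proprioceptors, lay between 513 and 1600 on the 8 pooled GFPon arrays and between 16.1 and 24.7 on the 8 GFPoff arrays. The proprioceptor marker Pvalb was nevertheless at 156 and 839 in NT3-/-Bax-/- GFPon cells, against 9261 and 8509 in Bax-/- GFPon cells. The 2 NT3-/-Bax-/- GFPoff libraries stood apart from the 6 other pooled GFPoff libraries. The summed level of 5 of 5 fibroblast markers was 26870 and 40000 on these 2 arrays, against 1549 to 2967 on the others. Endothelial markers (5 of 5 measured) summed to 2152 and 2154 against 241.5 to 403.5, glial markers (7 of 9) to 30300 and 26100 against 6548 to 11760, and cell division markers (4 of 5) to 5973 and 8197 against 309.7 to 777.1. Macrophage markers (6 of 6) were at 13220 on the first array and at 395.9 on the second, against 232.3 to 1267. Nociceptor markers (7 of 10) were at 34110 and 18160, against 43470 to 48730. These NT3-/-Bax-/- GFPoff libraries enter each GFPoff comparison below, and the part of the other cells' RNA in those results was not tested. In NT3-/-Bax-/- GFPon cells the fibroblast sum was 1281 and 951.2 against 672.9 to 927.7 in Bax-/- GFPon cells, and the macrophage sum 159.3 and 155.3 against 170.1 to 187. Other sums were lower on the same NT3-/-Bax-/- GFPon arrays: proprioceptor markers (4 of 6 measured) at 2710 and 4221 against 11940 to 12810, cutaneous mechanoreceptor markers (5 of 6) at 5591 and 4656 against 13990 to 14510, nociceptor markers at 16360 and 16770 against 21590 to 22200 and glial markers at 6315 and 2831 against 8844 to 12050. Of the glial markers 3 of 7 passed as lower. The part of these shifts in the GFPon results below was not tested. In such bulk samples fewer cells of a type and less RNA per cell cannot be told apart.

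Hrk (harakiri), a BH3-only gene of neurons, was the member with the largest difference in the mice that lacked NT3. Its brighter probe set, 1439854_at, read 8733 and 8825 in NT3-/-Bax-/- GFPon proprioceptors, 598.4 and 762.7 in Bax-/- proprioceptors and 148.9 and 172.2 in wild-type proprioceptors. The 3 genotypes did not overlap and stood in that order. The difference of NT3-/-Bax-/- from Bax-/- was 3.70 ± 0.28 on the log2 scale, a 13-fold higher level (limma adjusted p = 7.82e-06), and that from wild-type was 5.78, a 54.8-fold higher level (adjusted p = 3.78e-07). The second probe set, 1450366_at, read 528.4 and 433.4 in NT3-/-Bax-/- proprioceptors, 36.9 and 48.7 in Bax-/- proprioceptors and 43.9 and 38.5 in wild-type proprioceptors. NT3-/-Bax-/- thus exceeded Bax-/- by 3.50 there (adjusted p = 1.17e-05) and wild-type by 3.54 (adjusted p = 6.65e-06), while Bax-/- and wild-type cells overlapped. Without any 1 array of the pooled newborn set the difference from Bax-/- lay between 3.52 and 3.88 at 1439854_at. At 1450366_at it lay between 3.30 and 3.70.

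Hrk was also higher in the GFPoff population of the same mice. Probe set 1439854_at read 2912 and 4606 in NT3-/-Bax-/- GFPoff cells, 420.5 and 720.2 in Bax-/- GFPoff cells and 117 and 132.3 in wild-type GFPoff cells. The difference from Bax-/- was 2.74 (6.66-fold, adjusted p = 6.92e-05) and that from wild-type 4.88 (29.4-fold, adjusted p = 2.78e-06). Probe set 1450366_at read 110.5 and 216.5 in NT3-/-Bax-/- GFPoff cells against 42.2 and 53.5 in Bax-/- GFPoff cells, a difference of 1.70 (adjusted p = 0.00123). Its difference from wild-type GFPoff cells was 1.885 (adjusted p = 0.000511). Leaving out either of the NT3-/-Bax-/- GFPoff libraries, or any other array, kept the 1439854_at difference between 2.35 and 3.12. Within NT3-/-Bax-/- mice the GFPon cells were above the GFPoff cells, by 1.26 at 1439854_at (adjusted p = 0.00688) and by 1.63 at 1450366_at (adjusted p = 0.00145). The first of these did not pass without replicate 1 of the GFPoff cells (0.93, adjusted p = 0.0627). In wild-type mice the GFPon cells differed from the GFPoff cells by 0.36 (adjusted p = 0.516) and in Bax-/- mice by 0.30 (adjusted p = 0.677) at 1439854_at.

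**Figure D1:**
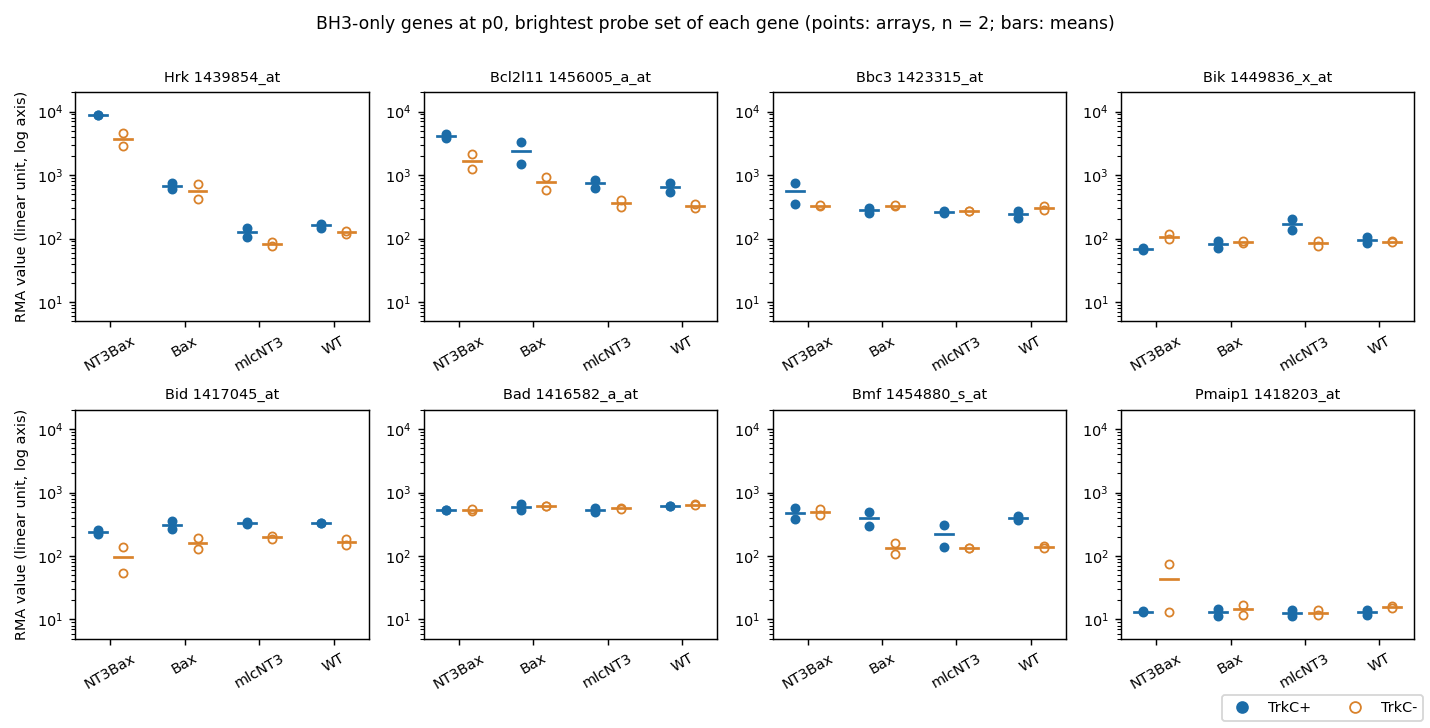
Linear RMA signal (log axis) of 1 probe set for each of the 8 members in NT3-/-Bax-/-, Bax-/-, mlcNT3 and wild-type newborn DRG cells, with GFPon arrays as filled points, GFPoff arrays as open points and bars at the mean of 2 arrays (in the plots NT3Bax stands for NT3-/-Bax-/-, Bax for Bax-/-, WT for wild-type, TrkC+ for GFPon and TrkC- for GFPoff). Hrk reached 8733 and 8825 in NT3-/-Bax-/- GFPon cells against 148.9 and 172.2 in wild-type GFPon cells, while Bad stayed within 475.5 to 672.4 over all arrays of the series.

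Bcl2l11 encodes Bim, which binds all pro-survival Bcl2 proteins and can activate Bax. It has 5 probe sets, which all placed NT3-/-Bax-/- proprioceptors above Bax-/- proprioceptors with no overlap of arrays, and 3 of them passed the test. Probe set 1435448_at read 3304 and 2502 in NT3-/-Bax-/- GFPon cells, 761.9 and 971.4 in Bax-/- GFPon cells and 596.3 and 473.2 in wild-type GFPon cells. This was a difference of 1.74 from Bax-/- (3.34-fold, adjusted p = 0.00232) and of 2.44 from wild-type (adjusted p = 0.000167). Probe set 1435449_at read 162.9 and 195.7 in NT3-/-Bax-/- GFPon cells, 43.7 and 46.1 in Bax-/- GFPon cells and 19.8 and 14.6 in wild-type GFPon cells. The 3 genotypes were again separate, with differences of 1.99 (3.98-fold, adjusted p = 0.000313) from Bax-/- and 3.39 (10.5-fold, adjusted p = 5.73e-06) from wild-type. Both probe sets passed without any 1 array. Probe set 1456006_at read 137.7 and 141 in NT3-/-Bax-/- GFPon cells against 49.9 and 69.9 in Bax-/- GFPon cells (1.24, adjusted p = 0.00552), and it narrowly missed the threshold without replicate 1 of the Bax-/- GFPon cells (adjusted p = 0.0538).

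The probe set with the highest mean level, 1456005_a_at, gave a smaller step. It read 3820 and 4357 in NT3-/-Bax-/- GFPon cells, 1511 and 3305 in Bax-/- GFPon cells and 747.5 and 539.2 in wild-type GFPon cells. The Bax-/- arrays differed from each other by more than on the other probe sets. The difference of NT3-/-Bax-/- from Bax-/- was 0.87 ± 0.37 and did not pass (adjusted p = 0.136). Without replicate 2 of the Bax-/- GFPon cells it was 1.43 and passed (adjusted p = 0.0203), and without their replicate 1 it was 0.30 (adjusted p = 0.7). Against wild-type the difference was 2.68 (6.43-fold, adjusted p = 0.000281), which passed without any 1 array. The fifth probe set, 1426334_a_at, was dim, between 9.79 and 28.2 over all arrays. It read 24.7 and 28.2 in NT3-/-Bax-/- GFPon cells against 18.3 and 16.4 in Bax-/- GFPon cells (0.61, adjusted p = 0.0637), and its difference from wild-type of 0.63 (adjusted p = 0.0418) was lost in 8 of 16 fits with 1 array left out.

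In GFPoff cells, 4 of the 5 Bcl2l11 probe sets passed for NT3-/-Bax-/- against Bax-/-. Probe set 1435448_at read 1535 and 2862 in NT3-/-Bax-/- GFPoff cells and 312.9 and 358 in Bax-/- GFPoff cells (2.65, adjusted p = 0.00017). Probe set 1435449_at read 58.7 and 100.8 in NT3-/-Bax-/- GFPoff cells and 17.9 and 23 in Bax-/- GFPoff cells (1.92, adjusted p = 0.00041). Both passed without any 1 array. The differences at 1456005_a_at (1.13, adjusted p = 0.0473) and 1456006_at (0.78, adjusted p = 0.0479) lay at the threshold, and adjusted p reached 0.318 and 0.294 for them when 1 array was left out. Fibroblast, endothelial and glial markers were higher on the same NT3-/-Bax-/- GFPoff arrays, as given above.

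Start regions of members were read from RefSeq promoter windows (assembly GRCm38.p6, 250 bases before to 50 bases after each annotated start) to show the sequence in front of the genes that rose. The table held 12 windows for 6 of the 8 members and none for Bik and Pmaip1. The motifs searched, on both strands, were TGANGTNA for ATF and CRE-like factors, TGANTCA for AP-1 and TGTTTAC for FoxO factors; no 2 matches overlapped in the windows printed. Windows with a match are shown 5′ to 3′ with the matched letters in capitals.
Hrk: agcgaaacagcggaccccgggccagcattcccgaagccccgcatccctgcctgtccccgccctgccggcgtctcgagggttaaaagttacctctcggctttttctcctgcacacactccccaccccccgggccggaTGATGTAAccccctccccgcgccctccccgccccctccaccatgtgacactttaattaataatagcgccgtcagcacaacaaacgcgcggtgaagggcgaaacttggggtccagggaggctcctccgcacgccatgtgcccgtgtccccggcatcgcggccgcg
Bcl2l11: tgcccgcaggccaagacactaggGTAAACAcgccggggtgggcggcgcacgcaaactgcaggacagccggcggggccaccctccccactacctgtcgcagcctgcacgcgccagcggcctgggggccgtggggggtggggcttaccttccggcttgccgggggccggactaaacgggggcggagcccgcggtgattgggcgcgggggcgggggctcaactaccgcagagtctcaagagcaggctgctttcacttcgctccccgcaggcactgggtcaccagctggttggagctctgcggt
Bbc3: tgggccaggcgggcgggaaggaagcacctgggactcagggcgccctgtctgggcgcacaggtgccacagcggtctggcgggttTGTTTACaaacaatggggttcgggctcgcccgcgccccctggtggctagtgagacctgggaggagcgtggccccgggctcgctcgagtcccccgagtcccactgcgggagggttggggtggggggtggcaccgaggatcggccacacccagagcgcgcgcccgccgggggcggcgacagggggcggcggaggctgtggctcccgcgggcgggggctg
The Hrk window (chr5:118169514-118169813, plus strand) held the letters TGATGTAA at position -114 from the start. The Bcl2l11 window (chr2:128125788-128126087, plus strand) is 1 of 2 annotated and held GTAAACA, the FoxO letters on the other strand, at position -227. The Bbc3 window (chr7:16310011-16310310, plus strand) is 1 of 3 annotated and held TGTTTAC at position -167. The other 9 member windows held no match. Over all 32851 windows the ATF and CRE-like letters stood in 16.4%, the AP-1 letters in 7.81% and the FoxO letters in 3.65%, and a match describes the letters only.

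Bbc3 encodes Puma, a target of p53 that binds all pro-survival Bcl2 proteins. Its probe set, 1423315_at, read 756.5 and 346.7 in NT3-/-Bax-/- GFPon cells, 255.5 and 299.9 in Bax-/- GFPon cells and 214.1 and 275 in wild-type GFPon cells. Both NT3-/-Bax-/- arrays were above the others, but only replicate 1 was far above them. The difference from Bax-/- was 0.89 (1.85-fold, adjusted p = 0.0448). It depended on replicate 1, being 0.32 without it (adjusted p = 0.373), and 13 of the 16 fits with 1 array left out did not pass. The difference from wild-type was 1.08 (adjusted p = 0.0131), and the highest adjusted p without 1 array was 0.111, with the call ended by NT3-/-Bax-/- GFPon replicate 1 or wild-type GFPon replicate 1. In GFPoff cells Bbc3 read 327.3 and 331.8 in NT3-/-Bax-/- mice, 321.5 and 336.9 in Bax-/- mice and 327.6 and 280.7 in wild-type mice, with a difference from Bax-/- that did not pass (adjusted p = 0.998).

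Bik, a BH3-only protein of the endoplasmic reticulum, was the only member with a probe set that passed the test as lower in NT3-/-Bax-/- than in Bax-/- proprioceptors. Probe set 1420362_a_at read 18.2 and 15.5 in NT3-/-Bax-/- GFPon cells, 36.1 and 26.8 in Bax-/- GFPon cells, 114.2 and 103 in mlcNT3 GFPon cells and 57.5 and 41.2 in wild-type GFPon cells. The arrays of the 4 genotypes did not overlap, with mlcNT3 highest and NT3-/-Bax-/- lowest. Apart from the mlcNT3 GFPon arrays, this probe set was dim in the pooled sorts, below array medians of 68.4 to 72.5. NT3-/-Bax-/- cells fell by 0.89 against Bax-/- (adjusted p = 0.0139) and by 1.53 against wild-type (adjusted p = 0.000327). The fall against Bax-/- did not pass without Bax-/- GFPon replicate 1 or NT3-/-Bax-/- GFPon replicate 2, where adjusted p reached 0.114. The mlcNT3 level was 1.16 above wild-type, 2.23-fold, and missed the threshold (adjusted p = 0.0617). The brighter probe set 1449836_x_at read 137.6 and 200.5 in mlcNT3 GFPon cells against 86.4 and 106.3 in wild-type GFPon cells, a difference of 0.79 (adjusted p = 0.257), and NT3-/-Bax-/- differed from Bax-/- by -0.23 there (adjusted p = 0.527). In GFPoff cells 1420362_a_at read 34 and 35.7 in NT3-/-Bax-/- mice against 20.1 and 27.4 in Bax-/- mice (0.57, adjusted p = 0.0836), the opposite sign to GFPon cells. Against wild-type GFPoff cells, at 20.6 and 24.2, the difference was 0.64 (adjusted p = 0.0463), which 8 of 16 fits with 1 array left out did not pass. The remaining probe set, 1420363_at, passed in none of the 20 comparisons (lowest adjusted p = 0.0812). For 1420362_a_at the difference between the GFPon and GFPoff effects was -1.45 against Bax-/- (adjusted p = 0.0104) and -2.17 against wild-type (adjusted p = 0.000828). Such an interaction passed for 2 of 20 member probe sets against Bax-/-, where 9.65% of all passed, and for 3 of 20 against wild-type, where 10.4% of all passed. The Bik interaction against Bax-/- did not pass without Bax-/- GFPoff replicate 1 (adjusted p = 0.052), and that against wild-type passed without any 1 array.

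Over all members, 7 of 20 probe sets passed for NT3-/-Bax-/- against Bax-/- in GFPon proprioceptors, 6 higher and 1 lower, where 18.2% of all probe sets passed. Against wild-type it was 9 of 20, 8 higher and 1 lower, where 26% of all passed. The median difference of the 20 was 0.09 against Bax-/-, beside 0.01 over all probe sets, and 0.29 against wild-type, beside -0.01. In GFPoff cells 8 of 20 passed against Bax-/- (7 higher, 1 lower, background 21.7%) and 8 of 20 against wild-type (7 higher, 1 lower, background 26.5%), with medians of 0.46 and 0.34. The calls fell on 4 of the 8 genes in each GFPon comparison. In GFPoff cells they fell on 4 genes against Bax-/- and on 5 against wild-type. Most were probe sets of Hrk and Bcl2l11, which hold 2 and 5 of the 20. With 1 probe set per gene, 2 of 8 passed against Bax-/- and 3 of 8 against wild-type in GFPon cells. In GFPoff cells 3 of 8 passed in each comparison. These comparisons share the NT3-/-Bax-/- arrays.

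**Figure D2:**
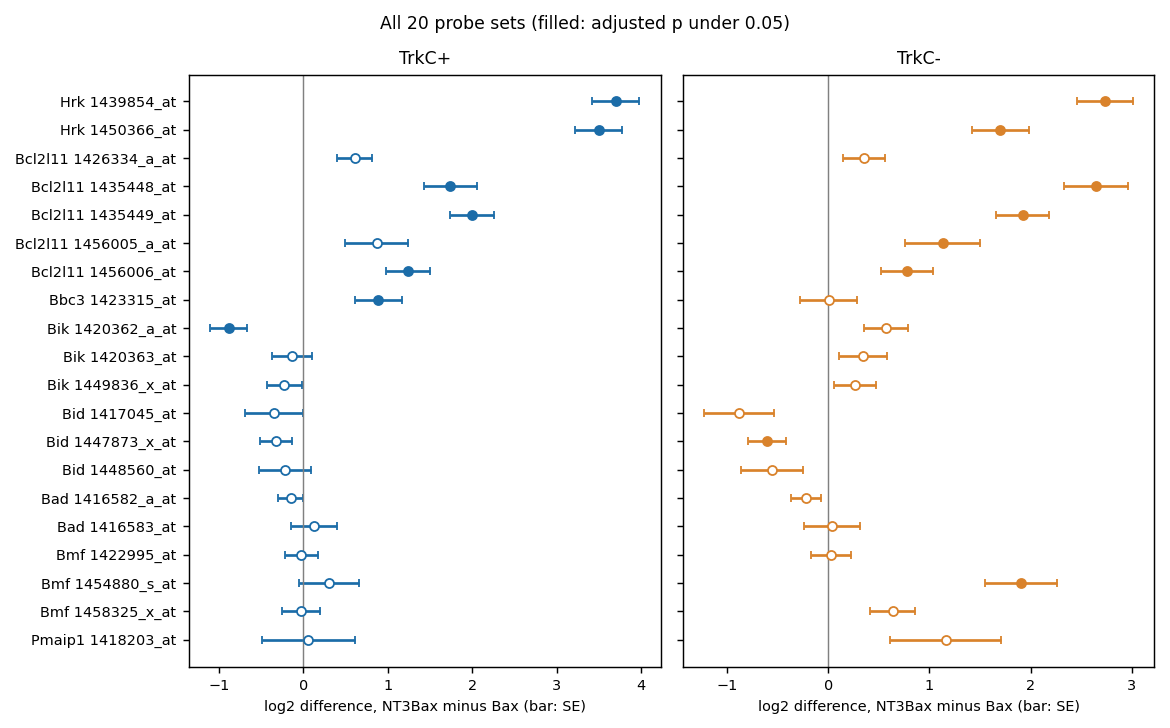
Difference of NT3-/-Bax-/- from Bax-/- on the log2 scale (points, with the SE as bars) for the 20 member probe sets, in GFPon cells on the left and GFPoff cells on the right, with filled points at an adjusted p under 0.05. Hrk reached 3.70 and 3.50 in GFPon cells, and Bik 1420362_a_at is the 1 filled point below 0 there.

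Bmf binds pro-survival proteins and is held at the cytoskeleton until released. Its level followed the TrkC sign in wild-type and Bax-/- mice. Probe set 1454880_s_at read 419.4 and 372.1 in wild-type GFPon cells against 143.1 and 134.5 in wild-type GFPoff cells, a difference of 1.51 (adjusted p = 0.0183). In Bax-/- mice it read 488.3 and 298.5 in GFPon cells against 109.1 and 160.4 in GFPoff cells (1.53, adjusted p = 0.0193). The sorts of single levels gave the same: 1.45 at L5 (320, 431.2 and 364.6 in GFPon cells against 156.6, 143.1 and 110.1 in GFPoff cells, adjusted p = 0.000385) and 1.60 at L1 (443.4 and 386.5 against 161.7, 155.1 and 102, adjusted p = 0.000498). No GFPon array overlapped a GFPoff array in these 4 sets. The pooled wild-type call was lost without any 1 of the 4 wild-type arrays (adjusted p up to 0.127), and the Bax-/- call without replicate 1 of either population (up to 0.169), while the L5 and L1 calls passed without any 1 array.

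In NT3-/-Bax-/- mice the populations did not differ at Bmf. GFPon cells read 577.7 and 382.8 and GFPoff cells 554.3 and 443, a difference of -0.08 (adjusted p = 0.919). The GFPoff cells were 1.91 above Bax-/- GFPoff cells (3.75-fold, adjusted p = 0.00256) and 1.84 above wild-type GFPoff cells (adjusted p = 0.00257), and both passed without any 1 array. The GFPon cells differed from Bax-/- GFPon cells by 0.30 (adjusted p = 0.642), and the contrast of the 2 effects was -1.60 (adjusted p = 0.0666). On the same GFPoff arrays the fibroblast sum was 26870 and 40000 against 1549 to 2967 on the other pooled GFPoff arrays, and its part in the Bmf level was not tested. In mlcNT3 mice GFPon cells read 310 and 138.2 and GFPoff cells 135.9 and 134.8 (0.61, adjusted p = 0.373), with 1 GFPon array near the GFPoff level. The other Bmf probe sets, 1422995_at and 1458325_x_at, passed in none of the 20 comparisons, and their correlations with 1454880_s_at over the 16 pooled newborn arrays were -0.175 and 0.699 in that order. The Bmf calls come from 1 probe set.

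Bid, which is cut by caspase 8 to link death receptors to mitochondria, was also higher in GFPon cells on some of its probe sets. The dimmer 1447873_x_at passed at L5 (0.88, adjusted p = 0.00963), in NT3-/-Bax-/- (1.00, adjusted p = 0.0026) and in Bax-/- mice (0.72, adjusted p = 0.0346). With 1 array left out its Bax-/- difference lay between 0.555 and 0.889, and the call was lost in some of these fits. Probe set 1448560_at passed as higher in no comparison. Probe set 1417045_at read 643, 609 and 539.4 in L5 GFPon cells against 299.1, 304.5 and 228.2 in L5 GFPoff cells (1.12, adjusted p = 0.000315). At L1 it read 459.7 and 468.6 in GFPon cells against 285.7, 275.7 and 220.1 in GFPoff cells (0.84, adjusted p = 0.0048). Both passed without any 1 array. In the pooled sorts GFPon arrays were above GFPoff arrays in all 4 genotypes, by 1.49 in NT3-/-Bax-/- (adjusted p = 0.0094), 0.95 in Bax-/- (adjusted p = 0.136), 0.75 in mlcNT3 (adjusted p = 0.236) and 1.00 in wild-type (adjusted p = 0.104). The NT3-/-Bax-/- difference was lost without GFPon replicate 2 or GFPoff replicate 2 (adjusted p up to 0.0515). NT3-/-Bax-/- GFPon cells read 224.7 and 256.4 against 355.9 and 261.7 in Bax-/- GFPon cells, a difference of -0.35 that did not pass (adjusted p = 0.571). In GFPoff cells another Bid probe set, 1447873_x_at, fell by 0.60 against Bax-/- (adjusted p = 0.0375; up to 0.253 without 1 array, 7 of 16 such fits not passing), and 1448560_at fell by 1.00 against wild-type (adjusted p = 0.0303; up to 0.193 without NT3-/-Bax-/- GFPoff replicate 2 or either wild-type GFPoff array), on the arrays with the higher fibroblast and glial sums.

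**Figure D3:**
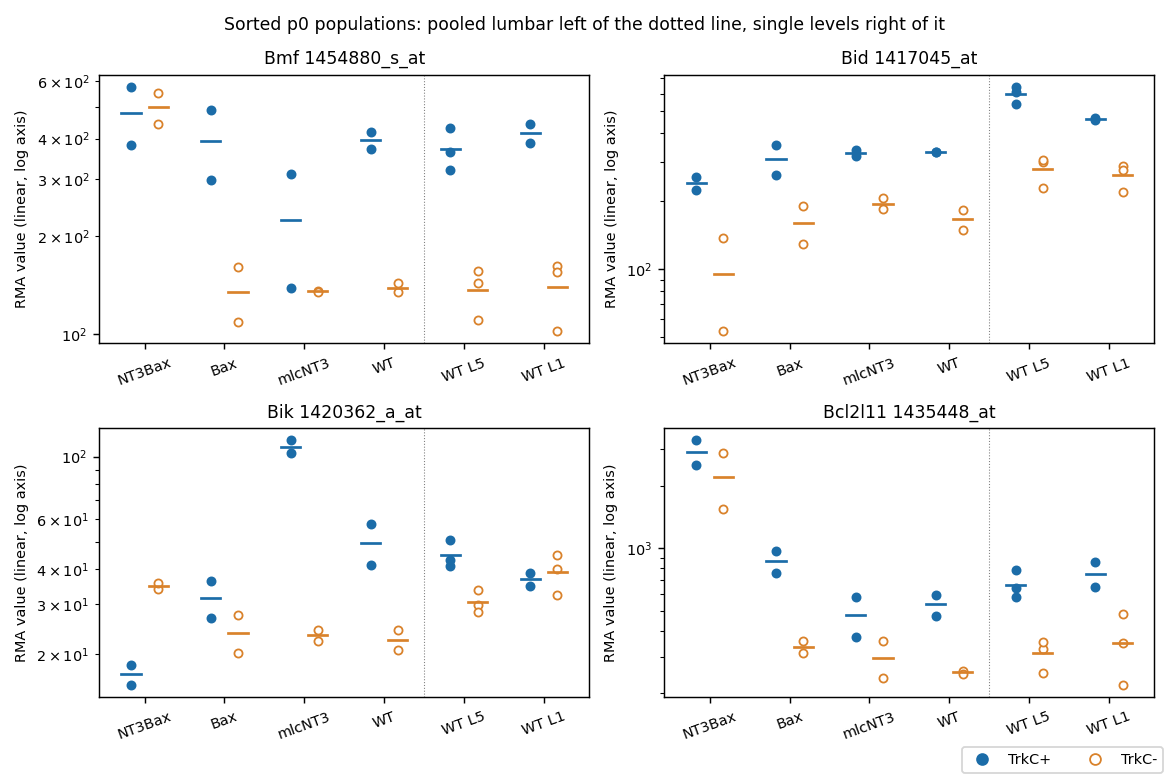
Linear RMA signal of Bmf 1454880_s_at, Bid 1417045_at, Bik 1420362_a_at and Bcl2l11 1435448_at on each newborn array, GFPon filled and GFPoff open, for the pooled sorts of 4 genotypes (left of the dotted line) and the wild-type L5 and L1 sorts (right), with bars at group means. For each gene the probe set shown passed in as many comparisons as any other of that gene, or more. For Bik and Bcl2l11 it is not the probe set with the highest mean level. Bmf separates the populations in wild-type, Bax-/-, L5 and L1 but not in NT3-/-Bax-/- cells, and Bik is highest in mlcNT3 GFPon cells (114.2 and 103).

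Bcl2l11 and Bik carried the TrkC sign in part, on some of their probe sets. Bcl2l11 1435448_at read 578.1, 640 and 782.2 in L5 GFPon cells against 328, 353.4 and 251.4 in L5 GFPoff cells (1.10, adjusted p = 0.0109), and at L1 853.2 and 648.3 in GFPon cells against 219.6, 480.5 and 350.7 in GFPoff cells (1.16, adjusted p = 0.0166). The L1 call was lost without L1 GFPon replicate 1 (0.86, adjusted p = 0.137). The difference was 1.36 in Bax-/- (adjusted p = 0.0184, and up to 0.126 without GFPon replicate 2 or either GFPoff array) and 1.08 in wild-type pooled sorts (adjusted p = 0.0525). No other Bcl2l11 probe set passed at L5. There 1456005_a_at averaged 496.6 in GFPon against 403.3 in GFPoff cells, and 1456006_at ran the other way (50.43 against 63.22). The dim 1435449_at (16.27 against 16.15) and 1426334_a_at (17.67 against 17.77) hardly differed. At L1 1426334_a_at (0.96) and 1435449_at (0.79) passed as higher, as did 1435449_at (1.14) and 1456005_a_at (1.59) in Bax-/- mice. Bik 1420362_a_at was higher in GFPon cells at L5 by 0.55 (50.6, 41 and 42.9 against 29.7, 28.2 and 33.8, adjusted p = 0.0223; up to 0.0817 without GFPon replicate 1 or GFPoff replicate 1 or 2) but not at L1 (34.8 and 38.6 against 32.2, 44.6 and 40; -0.08, adjusted p = 0.828). In the pooled sorts it was higher in GFPon cells by 2.22 in mlcNT3 mice (114.2 and 103 against 24.4 and 22.2, adjusted p = 4.44e-05) and by 1.12 in wild-type mice (57.5 and 41.2 against 20.6 and 24.2, adjusted p = 0.00567). The wild-type call was lost without replicate 1 of either population (adjusted p up to 0.0819). In NT3-/-Bax-/- mice the sign was the opposite, 18.2 and 15.5 in GFPon cells against 34 and 35.7 in GFPoff cells (-1.05, adjusted p = 0.00476). At L5 the brighter Bik 1449836_x_at averaged 88.48 in GFPon against 94.35 in GFPoff cells, and 1420363_at 51.68 against 55.53. Both ran the other way and did not pass. In mlcNT3 mice 1449836_x_at was higher in GFPon cells by 0.99 (limma adjusted p = 0.00911). Bbc3 was lower in GFPon cells at L1 (223.9 and 288.6 against 430.3, 347.8 and 441.2; -0.67, adjusted p = 0.0278), a call lost without L1 GFPon replicate 1 or GFPoff replicate 1 or 3 (adjusted p up to 0.222).

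Counted over the 20 probe sets, GFPon against GFPoff gave 7 higher and 2 lower in NT3-/-Bax-/- mice (19.3% of all probe sets passed), 5 higher in Bax-/- mice (7.82%), 2 higher in mlcNT3 mice (10%) and 2 higher in wild-type mice (8.95%). It gave 6 higher at L5 (19.9%) and 5 higher and 1 lower at L1 (17.9%). At L5 the Hrk probe set 1450366_at was among them, at 52.3, 62.6 and 55.2 in GFPon cells against 33.6, 29.6 and 41 in GFPoff cells (0.72, adjusted p = 0.00381). The members that passed outside NT3-/-Bax-/- mice were Hrk, Bcl2l11, Bbc3, Bik, Bid and Bmf.

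1 of the Hrk probe sets was also higher in mice that lacked Bax alone than in wild-type mice. Probe set 1439854_at read 598.4 and 762.7 in Bax-/- GFPon cells against 148.9 and 172.2 in wild-type GFPon cells (2.08, 4.22-fold, adjusted p = 0.00965). In GFPoff cells it read 420.5 and 720.2 in Bax-/- mice against 117 and 132.3 in wild-type mice (2.15, adjusted p = 0.0134). The arrays did not overlap in either population, but the GFPon call was lost without either wild-type GFPon array (adjusted p up to 0.119) and the GFPoff call without Bax-/- GFPoff replicate 2 or either wild-type GFPoff array (up to 0.192). The other Hrk probe set, 1450366_at, overlapped between the genotypes, with differences of 0.04 in GFPon cells (adjusted p = 0.976) and 0.18 in GFPoff cells (adjusted p = 0.863). It was dim on these arrays, at 36.9 to 53.5, below array medians of 68.4 to 72.5. Whether it could show such a rise at that level was not tested. Bcl2l11 1435449_at read 43.7 and 46.1 in Bax-/- GFPon cells against 19.8 and 14.6 in wild-type GFPon cells (1.40, adjusted p = 0.0455), which was lost in 11 of 16 fits with 1 array left out. Of the 20 probe sets 2 passed in GFPon cells, where 0.5% of all probe sets passed, and 1 in GFPoff cells, where 0.178% passed.

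A surplus of NT3 from muscle moved no member past the threshold in the main fit. Bik 1420362_a_at nevertheless read 114.2 and 103 in mlcNT3 GFPon cells against 57.5 and 41.2 in wild-type GFPon cells, without overlap. Other settings called 1 of 20 in GFPon cells (an offset of 50 before log2, or only the arrays compared) or 2 (all 39 arrays in 1 fit). Hrk 1439854_at read 145 and 104.3 in mlcNT3 GFPon cells against 148.9 and 172.2 in wild-type GFPon cells (-0.38, adjusted p = 1), and 87.4 and 77.1 in mlcNT3 GFPoff cells against 117 and 132.3 in wild-type GFPoff cells (-0.60, adjusted p = 0.704). Bcl2l11 1435448_at read 578.7 and 373.4 in mlcNT3 GFPon cells against 596.3 and 473.2 in wild-type GFPon cells, with 1 mlcNT3 array between the wild-type arrays and 1 below them (-0.19, adjusted p = 1). In GFPon cells limma called 0 of 20 (0.209% of all probe sets passed), with 4 of 20 at an unadjusted p under 0.05, and in GFPoff cells 0 of 20 (0.00444%), with 1 of 20 unadjusted. The methods' t-test called 0 in both populations.

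Segmental level gave no member call at birth. L5 against L1 gave 0 of 20 in GFPon cells (0.397% of all passed, 2 of 20 unadjusted) and 0 of 20 in GFPoff cells (0.16%, 4 of 20 unadjusted) with limma, and 0 with the methods' t-test. Bid 1417045_at read 643, 609 and 539.4 in L5 GFPon cells against 459.7 and 468.6 in L1 GFPon cells. Those arrays did not overlap, and the difference of 0.36 did not pass (adjusted p = 0.547).

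In adult whole ganglia the level of Hrk 1439854_at lay between 56 and 92.5 on all 12 arrays, and Hrk 1450366_at between 37.2 and 55.1. Bik 1420362_a_at was lower in L5 than in L1 ganglia. This probe set was dim, at 19.98 to 46.73 where adult array medians lay between 68.2 and 70. With a running wheel it read 20, 22.5 and 22.7 in L5 against 46.7, 38 and 32.4 in L1 (-0.83, adjusted p = 0.00286), and without a wheel 23.4, 24 and 20.1 in L5 against 40.3, 34.2 and 27.5 in L1 (-0.58, adjusted p = 0.032). The levels did not overlap in either set. The other Bik probe sets did not pass in adults. The brightest, 1449836_x_at, averaged 87.13 in L5 against 98.59 in L1 with a wheel and 84.53 against 107.3 without. For 1420363_at the means were 55.38 against 56.49 with a wheel and 51.29 against 57.05 without. Cell-type markers moved with level too: the proprioceptor sum was 2130 to 2378 in L5 against 1277 to 1338 in L1 with a wheel (3 of 4 markers higher) and 1925 to 2444 against 1235 to 1298 without (2 of 4 higher). The nociceptor sum was 20960 to 23850 in L5 against 23540 to 32150 in L1 with a wheel (3 of 7 lower) and 21720 to 23580 against 22640 to 26690 without (1 of 7 lower). Their part in the adult L5 and L1 differences of the members was not tested. The call with the wheel passed without any 1 array, and that without the wheel was lost without L1 replicate 1 or 2 or L5 replicate 2 or 3 (adjusted p up to 0.134). Bid 1417045_at without a wheel read 281.5, 255.7 and 252.7 in L5 against 334.6, 338.6 and 346 in L1 (-0.37, adjusted p = 0.0167), a call lost without L1 replicate 2 or 3 or L5 replicate 2 or 3 (adjusted p up to 0.078). With a wheel Bid read 292.8, 316.9 and 299.6 in L5 against 303.1, 335.2 and 322.5 in L1 (-0.08, adjusted p = 0.667), and the interaction of level and wheel passed for 0 of 20 member probe sets (0% of all passed, 2 of 20 unadjusted).

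Bcl2l11 1435448_at ran the other way in mice with a wheel, at 228.4, 202.3 and 207.8 in L5 against 172.8, 166.4 and 173.9 in L1 (0.31, adjusted p = 0.0303). That call was lost without any of the L1 arrays or L5 replicate 1 or 3 of the wheel group (adjusted p up to 0.145). Without a wheel it read 176.8, 170.1 and 184.9 in L5 against 159, 159.3 and 155.8 in L1. No other Bcl2l11 probe set passed in adults. With a wheel the brightest, 1456005_a_at, averaged 535.5 in L5 against 557.5 in L1, and 1426334_a_at 16.91 against 17.08. Slightly higher in L5 were 1435449_at (16.11 against 15.65) and 1456006_at (48.95 against 44.43). L5 against L1 thus gave 1 higher and 1 lower of 20 with a wheel, where 5.43% of all probe sets passed, and 2 lower of 20 without one, where 4.68% passed. The wheel itself gave 0 of 20 in L5 (0.48% of all passed, 4 of 20 unadjusted) and 0 of 20 in L1 (0.242%, 3 of 20 unadjusted), with 0 by the methods' t-test. Whole ganglia hold non-neuronal cells, with a fibroblast marker sum of 8132 to 14740 over the adult arrays, so no test set their levels against those of sorted newborn cells.

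**Figure D4:**
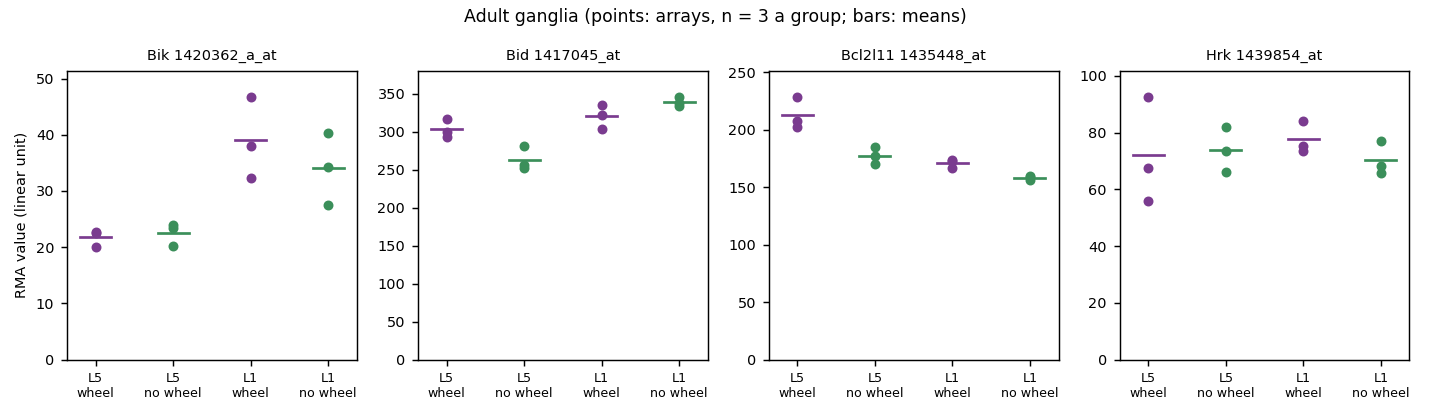
Linear RMA signal of Bik 1420362_a_at, Bid 1417045_at, Bcl2l11 1435448_at and Hrk 1439854_at in adult whole ganglia (L5 and L1, with and without a running wheel), each point 1 array and bars the mean of 3. For each gene the probe set shown passed in as many comparisons as any other of that gene, or more. For Bik and Bcl2l11 it is not the probe set with the highest mean level. Bik 1420362_a_at, a dim probe set, is lower in L5 than in L1 with and without a wheel, and Hrk stays between 56 and 92.5.

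Bad and Pmaip1 passed in no comparison. Bad, whose protein is silenced by Akt phosphorylation, lay between 475.5 and 672.4 at 1416582_a_at and between 124.1 and 357.7 at 1416583_at over the 39 arrays, with lowest adjusted p of 0.183 and 0.164 over 20 comparisons. Pmaip1, which encodes Noxa and neutralises Mcl1, was dim at birth, between 8.60 and 18.4 apart from 1 array. That array, NT3-/-Bax-/- GFPoff replicate 1, read 74.9, and its partner replicate 2 read 13.3. The macrophage sum was 13220 on the first and 395.9 on the second, and its part was not tested. Adult whole ganglia, which were not compared with the sorted cells, read 34.8 to 63.5.

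Genes around the members changed in NT3-/-Bax-/- proprioceptors too. Of the anti-apoptotic Bcl2 proteins, the targets that BH3-only proteins bind, 5 of 8 had a probe set assigned to them alone. Bcl2 was lower in NT3-/-Bax-/- than in Bax-/- GFPon cells (825.8 against 2495, -1.63, limma adjusted p = 0.0025), as was Bcl2l2, which encodes Bcl-w (843.5 against 2024, -1.24, adjusted p = 0.00145). The list gave 0 higher and 2 lower of 5, where 18.2% of all probe sets passed, with a median of -0.42 beside 0.01 over all probe sets. The counts of the lists that follow are to be read against the same 18.2%. The multidomain effectors (2 of 3 measured, Bak1 and Bok) gave none, with a median of 0.14. In the apoptosome and caspase list (14 of 16 measured, median -0.12) Casp2 (1.25) and Casp6 (1.00) rose and the mitochondrial genes Diablo (-1.17), Aifm1 (-1.16) and Cycs (-0.78) fell. The other BH3-containing or related list (5 of 7 measured) gave Bnip3 alone, at -0.96.

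Stress pathways known to act upstream of BH3-only genes were described by the same counts. The integrated stress response list gave 5 higher and 0 lower of 10, where 18.2% of all probe sets passed, with a median of 0.61. Ddit3, which encodes the transcription factor CHOP, averaged 986.2 in NT3-/-Bax-/- against 162.8 in Bax-/- GFPon cells (2.52, adjusted p = 0.000142), and Atf5 (2.79, adjusted p = 0.000693), Trib3 (2.30), Chac1 (1.51) and Atf4 (0.75, adjusted p = 0.00771) rose as well. In the JNK and AP-1 list (17 of 19 measured, median -0.14) Atf3 averaged 963.8 against 163.9 (2.58, adjusted p = 0.00204) and Jun 7735 against 2851 (1.46, adjusted p = 0.00665), while Map2k4 (-0.86) and Junb (-0.73) fell. In the FoxO and PI3K-Akt list (8 of 11 measured, median 0.17) Pik3r1 rose (1.45) and Foxo1 fell (-0.60, adjusted p = 0.0361). In the p53 list (11 of 13 measured, median 0.05) Mdm2 (0.73) and Sesn1 (1.03) rose and Aen (-1.84), Zmat3 (-0.95) and Ccng1 (-0.70) fell. Among death and neurotrophin receptors (9 of 10 measured, median -0.46) Unc5b averaged 89.4 against 626 (-2.81, adjusted p = 0.000113) and Ngfr, the p75 receptor, 760.7 against 3394 (-2.21, adjusted p = 0.0022).

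In GFPoff cells the integrated stress response list gave 6 higher and 0 lower of 10 for NT3-/-Bax-/- against Bax-/-, where 21.7% of all probe sets passed (median 0.78 beside 0.005 over all probe sets), with Ddit3 at 1.76 and Atf5 at 2.03. Over all 80 listed genes 18 passed as higher and 15 as lower in this comparison, and only some are named here. Jun (1.30), Foxo1 (1.63) and Sgk1 (2.89) were among those that rose, and Bcl2l2 (-1.32) was among those that fell. These arrays carried the higher fibroblast, endothelial and glial sums given above, whose part was not tested. For Bax-/- against wild-type, limma called 0 of the 80 listed genes in GFPon and 0 in GFPoff cells (8 at an unadjusted p under 0.05 in each), and for mlcNT3 against wild-type 0 in each (4 unadjusted in each). Over all probe sets 0.5% and 0.178% passed for Bax-/- and 0.209% and 0.00444% for mlcNT3, GFPon first. With so few calls anywhere, these zero counts do not set the listed genes apart.

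**Figure D5:**
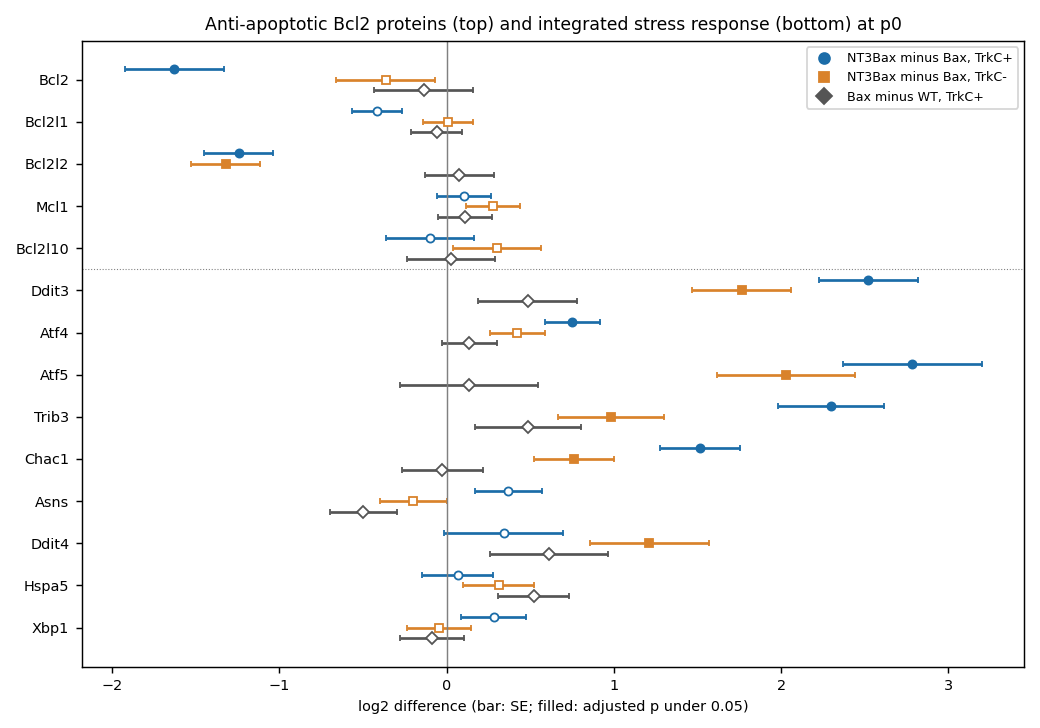
Differences on the log2 scale with their SE for the measured genes of the anti-apoptotic Bcl2 list (top) and the integrated stress response list (bottom, without Sesn2, which is also in the p53 list), for NT3-/-Bax-/- minus Bax-/- in GFPon and in GFPoff cells and Bax-/- minus wild-type in GFPon cells, with filled points at an adjusted p under 0.05. Bcl2 and Bcl2l2 lie below 0 and Ddit3 and Atf5 above 2 in the GFPon comparison, and no point is filled for Bax-/- minus wild-type.

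Hrk and Bcl2l11 had similar profiles over the 16 pooled newborn arrays (r = 0.878 between 1439854_at and 1456005_a_at). The 4 NT3-/-Bax-/- arrays take the high end of both, so this is a description and carries no p. The named genes whose log2 profile was most like that of Hrk were Cpsf3 (r = 0.97), Stox2 (0.962), Ppp1r17 (0.954), Cbx1 (0.95) and Nts (0.944). Nts, the neurotensin precursor, averaged 7114 in NT3-/-Bax-/-, 285 in Bax-/- and 35.6 in wild-type GFPon cells. In GFPoff cells it averaged 3208 in NT3-/-Bax-/-, 387.6 in Bax-/- and 118.5 in wild-type mice. Ppp1r17 averaged 762.9 in NT3-/-Bax-/-, 35.6 in Bax-/- and 11.3 in wild-type GFPon cells. The genes most like Bcl2l11 were Zfp711 (r = 0.937), Skp2 (0.935), Nck2 (0.931), Csf2ra (0.922) and Scn3a (0.916), and no gene was among the first 5 of both lists. The probe sets of 1 member mostly ran together, with r = 0.90 for the 2 Hrk probe sets and 0.594 to 0.911 between the leading Bcl2l11 probe set and the other 4.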

How the data were processed

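Transcripts of newborn and adult mouse DRG were measured on Affymetrix Mouse Genome 430 2.0 arrays. The deposited values are linear intensity values per probe set, which the authors made by RMA; R 2.9, affy, RMA and MAS5 are named in the submitters' processing notes. The table carried no detection calls. The values were linear, so log2 was taken first. Of 45101 probe sets, 64 controls were left out; 34945 of the rest had 1 gene symbol, 932 several and 9160 none, and only those with 1 symbol were named. Group means were fitted with limma 3.58.1 (R 4.3.3) in 3 fits, the 16 pooled newborn arrays, the 11 newborn arrays of single levels and the 12 adult arrays. P-values were adjusted by Benjamini-Hochberg over all 45037 probe sets, and calls were made at 0.05. Scripts were tested on simulated data.

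All 8 members were named by every probe set. 1 probe set stood for a gene by its highest mean log2 value over 39 arrays, and likeness was the 5 highest correlations. Genes of pathway lists were named where called for NT3-/-Bax-/- against Bax-/- in GFPon cells, and only in part for other comparisons. The members and lists were chosen with earlier results of these data known. Adult sample titles carry a TrkC sign although whole ganglia were taken, and were grouped by level and wheel. Array medians lay between 64.8 and 72.5, and the lowest correlation within a group was 0.9716 (NT3-/-Bax-/- GFPoff). Precision is limited by the few arrays per group. Of the marker lists not given elsewhere, cutaneous mechanoreceptors (5 of 6 measured) summed to 5332 and 4165 on the NT3-/-Bax-/- GFPoff arrays against 8462 to 12180 on the 6 other pooled GFPoff arrays, erythrocytes (2 of 3) to 66.6 and 64.1 against 64.7 to 80.2, proprioceptors (4 of 6) to 802.6 and 787.1 against 307.1 to 487.7 and all DRG neurons (7 of 7) to 25600 and 22360 against 27760 to 32280. The methods name a t-test and an n-way ANOVA, and only the t-test was run here, on the 2 groups compared. It was called at a raw p up to 0.02 and at least a 2-fold change, or 1.5-fold for surplus NT3 and adults. The paper gives an ANOVA for its lists of NT3 loss, surplus NT3 and adult level, so the t-test counts there do not repeat its procedure. Alternatives were another normalization, an offset of 50 before log2, the brighter 50% of probe sets, other sets of arrays, a replicate block, an intensity trend and each array left out.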

Additional observations from a re-analysis of the deposited data

Results flagged for a closer look

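In 5 cases a member's difference in GFPon cells was itself different from that in GFPoff cells, by the limma interaction term. These were 2 of 20 probe sets for NT3-/-Bax-/- against Bax-/-, where 9.65% of all probe sets passed, and 3 of 20 for NT3-/-Bax-/- against wild-type, where 10.4% passed. Hrk 1450366_at gave 1.80 against Bax-/- (adjusted p = 0.0133; 0.0532 without Bax-/- GFPoff replicate 2) and 1.66 against wild-type (adjusted p = 0.0188; up to 0.0851 without NT3-/-Bax-/- GFPon replicate 1, wild-type GFPon replicate 2 or wild-type GFPoff replicate 1). The other Hrk probe set, 1439854_at, gave 0.97 against Bax-/- and did not pass (adjusted p = 0.159). Bik 1420362_a_at gave -1.45 against Bax-/- (adjusted p = 0.0104) and -2.17 against wild-type (adjusted p = 0.000828). Its signs were opposite in the 2 populations, and it was dim on these arrays. Bcl2l11 1456006_at gave 1.35 against wild-type (adjusted p = 0.0337), a call that 7 of the 16 fits with 1 array left out did not make (adjusted p up to 0.14). All 5 use the NT3-/-Bax-/- GFPoff arrays, whose fibroblast sum was 26870 and 40000 against 1549 to 2967 on the other pooled GFPoff arrays, and its part was not tested. Groups of 2 or 3 arrays allow no test for a single array that stands out.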

How the results depend on the processing

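Of 80 member differences followed, Hrk and the Bcl2l11 probe sets 1435448_at and 1435449_at passed for NT3-/-Bax-/- against Bax-/- and against wild-type in both populations with every array left out, and under every other limma alternative except Hrk 1450366_at against Bax-/- in GFPoff cells (adjusted p up to 0.0571). Of these differences under other settings (781 values), 0 turned sign, and with 1 array left out 3 did, in NT3-/-Bax-/- against Bax-/- GFPon cells: Bad 1416582_a_at was 0.003 without Bax-/- GFPon replicate 1 (range -0.306 to 0.003 over arrays left out), Pmaip1 -0.109 without the same array (range -0.109 to 0.227), and Bmf 1454880_s_at -0.054 without Bax-/- GFPon replicate 2 (range -0.054 to 0.656). The differences followed were those that passed in the main fit. To these was added each member's probe set of highest mean level in NT3-/-Bax-/- against Bax-/- GFPon cells. Differences chosen for passing had little room to turn sign when refitted on the same arrays. The 3 that turned had not passed, so the counts of sign changes say little about how firm the others are. Causes were not tested.

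Counts of 20 probe sets that passed moved more. With 1 array left out, NT3-/-Bax-/- against Bax-/- gave 4 to 8 in GFPon and 5 to 9 in GFPoff cells, NT3-/-Bax-/- against wild-type 7 to 9 and 6 to 8, Bax-/- against wild-type 0 to 3 and 0 to 1, and mlcNT3 against wild-type 0 to 1 and 0. GFPon against GFPoff gave 4 to 10 in NT3-/-Bax-/-, 0 to 6 in Bax-/-, 1 to 4 in mlcNT3, 0 to 4 in wild-type, 5 to 6 at L5 and 3 to 6 at L1. L5 against L1 gave 0 to 1 in GFPon cells, 1 to 2 in adults with a wheel and 0 to 3 without, and the wheel 0 to 1 in L5 and 0 to 1 in L1. The 2 interactions gave 1 to 3 against Bax-/- and 1 to 6 against wild-type.

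With the brighter 50% of probe sets (fewer members tested), NT3-/-Bax-/- against Bax-/- gave 3 in GFPon and 4 in GFPoff cells and against wild-type 4 and 5; GFPon against GFPoff gave 4 in NT3-/-Bax-/-, 3 in Bax-/- and 1 in mlcNT3, adults with a wheel 1, and the interactions 1 and 1. With 1 probe set per gene (8 members tested) these were 2, 3, 3 and 3, Bax-/- against wild-type 1 in GFPon cells, GFPon against GFPoff 4, 2 and 1 with 1 in wild-type, 2 at L5 and 3 at L1, adults 0 with a wheel and 1 without, and the interactions 0 and 0. With only the arrays compared, NT3-/-Bax-/- against Bax-/- gave 4 and 4, Bax-/- against wild-type 0 and 0, mlcNT3 against wild-type 1 in GFPon cells, GFPon against GFPoff 0 in NT3-/-Bax-/-, 1 in Bax-/-, 5 in mlcNT3 and 5 in wild-type, adults 1 with a wheel and 0 without, and the interaction against Bax-/- 0. With all 39 arrays in 1 fit, mlcNT3 against wild-type gave 2 in GFPon cells, GFPon against GFPoff 5 in mlcNT3 and 4 in wild-type, adults 1 with a wheel and 0 without, and the interactions 4 and 7. With log2(value + 50), Bax-/- against wild-type gave 1 and mlcNT3 against wild-type 1 in GFPon cells, NT3-/-Bax-/- against Bax-/- 5 in GFPoff cells and adults without a wheel 1. An intensity trend with robust fitting gave 1 for adults with a wheel.

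The methods' t-test gave 3 for NT3-/-Bax-/- against Bax-/- in GFPon cells and 0 in GFPoff cells, 2 for NT3-/-Bax-/- against wild-type in GFPoff cells, 1 and 0 for Bax-/- against wild-type, and for GFPon against GFPoff 1 in NT3-/-Bax-/-, 0 in Bax-/-, 1 in mlcNT3, 1 in wild-type, 3 at L5 and 1 at L1; adults gave 1 with a wheel and 0 without. After Benjamini-Hochberg it gave 3 at L5 and 0 in the other comparisons of 2 groups.

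Same-numbered GFPon and GFPoff arrays deviated together weakly, with correlations of 0.158 in NT3-/-Bax-/-, 0.283 in Bax-/-, 0.008 in mlcNT3 and 0.197 in wild-type. They were 0.085 to 0.203 at L5 and -0.07 to 0.006 at L1. Same-numbered pooled arrays of different genotypes gave 0.009 to 0.258 in the contrasts checked. The numbers were not taken as pairs in the main fit, but with 2 arrays a group such correlations cannot settle whether they are. A replicate block gave 5 for the interaction against wild-type. A replicate block of sorted pairs, chosen after seeing the data, gave 4 for GFPon against GFPoff in mlcNT3 and 3 at L1. Quantile normalization and array medians moved no count by over 1.5 times.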

Other observations

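Some genes of the FoxO and PI3K-Akt list, a pathway known to act upstream of Bcl2l11, Bbc3 and Bad, were lower in GFPon than in GFPoff cells of wild-type newborns. Of 8 measured, 0 rose and 4 fell at L5 (median -0.69 beside 0.04 over all probe sets, of which 19.9% passed), 0 rose and 5 fell at L1 (median -0.72 beside 0.02, 17.9% passed), and 1 rose and 5 fell in the pooled wild-type sorts (median -0.69 beside -0.08, 8.95% passed). Foxo3 averaged 349.6 in GFPon against 809.3 in GFPoff cells at L5 (-1.20, limma adjusted p = 0.000692), 457.3 against 844.9 at L1 (-0.92, adjusted p = 0.00865) and 537.4 against 1531 in the pooled sorts (-1.51, adjusted p = 0.00443). Foxo1, Akt2 and Pik3r1 fell in all 3 sorts, and Sgk1 rose in the pooled sort (680.7 against 232.5, 1.55, adjusted p = 0.00316).

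Sgk1, a kinase related to Akt, was also higher in adult ganglia with a running wheel than without. It averaged 1344 with a wheel against 787.8 without in L5 (0.77, limma adjusted p = 0.0248) and 886 against 529.8 in L1 (0.75, adjusted p = 0.0199). Unc5b, a netrin receptor, averaged 547.8 with a wheel against 336.3 without in L5 (0.70, adjusted p = 0.0127). No other gene of the 80 listed passed for the wheel, where 0.48% of all probe sets passed in L5 and 0.242% in L1.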
